A study of Mus musculus with 6 samples.

Results

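Cytochrome P450 genes were compared between the injured kidneys of mice given vehicle and of mice given the quassinoid BA. The genes were found by name, as every symbol made of Cyp, a family number, a subfamily letter and a gene number. The Cyp4a genes, Cyp4b1, Cyp24a1 and Cyp27b1 were set apart. Of 19176 rows in the expression table, 52 carried such a name. The 7 Cyp4a and Cyp4b1 genes and the pair Cyp24a1 and Cyp27b1 were set apart, which left 43 genes. These 43 still held 7 genes of the Cyp4 family (Cyp4f13, Cyp4f16, Cyp4f17, Cyp4f18, Cyp4f41-ps, Cyp4v3 and Cyp4x1), because the naming rule covers only part of that family. Of the 43, 2 are pseudogenes.

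Messenger RNA of renal cortex was sequenced from wild-type C57BL/6J male mice on day 14 after clamping of the left renal pedicle. The 3 UIR libraries came from mice given vehicle (dilute ethanol in saline) into the peritoneum each day, and the 3 UIR_BA libraries from mice given 1 mg/kg BA each day in the same way. Both groups lost the right kidney the day before tissue was taken, so every library is from a lone injured kidney. No uninjured kidney was analysed here. The labels spell the compound brucine A and the methods bruceine A. The libraries held between 16510720 and 38124164 reads on genes, with UIR replicate 3 the deepest. Values are normalized counts, that is, read counts divided by a size factor for each library. The study describes the 3 libraries of a group as independent biological replicates.

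Cytochrome P450 enzymes are heme proteins that insert an oxygen atom into fats, steroids, vitamins and foreign compounds. Most sit in the endoplasmic reticulum and take electrons from P450 oxidoreductase, while a few lie in mitochondria and use ferredoxin. In kidney they are known mainly from the proximal tubule, where Cyp2c and Cyp2j enzymes turn arachidonic acid into epoxyeicosatrienoic acids, lipid mediators of vessel tone and salt transport. Other families clear drugs, make bile acids from cholesterol, or make and break down the active forms of vitamins A and D.

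What the genes share is the stretch that holds the heme. A protein pattern of phenylalanine, glycine, arginine, cysteine and glycine at fixed spacing was searched in the longest reading frame of the 41 genes that have a coding transcript, and 36 held it exactly 1 time. The bases of that stretch, read from GENCODE release M21 transcripts (build GRCm38) from 5′ to 3′, are shown for the members on which the comparison turned and for a pair that hardly differed, Cyp2j6 and Cyp1b1. Capitals mark the codon of the cysteine that binds the heme iron.
Cyp2j5: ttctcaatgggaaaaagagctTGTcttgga
Cyp2j13: ttttcaatgggaaagcgagctTGCctcgga
Cyp2j11: ttctcaatgggaaagagagctTGCcctggg
Cyp2j6: ttctcaatgggaaagcgagctTGCctggga
Cyp2c23: ttctccctcgggaagcgatccTGTgttggc
Cyp2d26: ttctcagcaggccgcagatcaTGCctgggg
Cyp2d12: ttttcagcaggccgcagatcaTGCctgggg
Cyp2e1: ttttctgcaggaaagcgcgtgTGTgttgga
Cyp1b1: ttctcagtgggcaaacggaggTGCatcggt

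The stretch of Cyp2j5 lies between bases 96629627 and 96630720 of chromosome 4, on the minus strand, and its cysteine is codon 447 of 501. It runs across the junction of exons 8 and 9, and the same holds for Cyp2j13, Cyp2j11, Cyp2j6, Cyp2c23, Cyp2d26, Cyp2d12 and Cyp2e1. In Cyp1b1, a minus-strand gene of chromosome 17, it lies within exon 3 (79710309 to 79710338).

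Levels were compared between genes per kilobase of merged exons in GENCODE M21. Cyp2j5, an arachidonic acid epoxygenase abundant in mouse kidney, stood first with a mean of 3555 normalized counts per kb over the 6 libraries and a range of 2447 to 4804. Cyp2e1, which oxidises ethanol and many small solvents, came second with a mean of 1641 per kb (974 to 2197). Cyp1b1, which hydroxylates estrogens and polycyclic hydrocarbons, followed with 919 per kb and a lowest library of 798 per kb. Cyp27a1, the mitochondrial sterol side chain hydroxylase, had a mean of 789 per kb (685 to 932), and Cyp2j13 with 728 per kb (575 to 1006).

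Cyp2j5 lay above Cyp2e1 in every library, and the lowest library of each of these 5 genes lay above the highest of the genes ranked after them, 415 per kb for Cyp2j11. The ranges of Cyp2e1 and Cyp1b1 overlapped, as did those of Cyp1b1, Cyp27a1 and Cyp2j13. The first 5 genes held 67.4% of the summed level per kb of the 43 genes, and Cyp2j5 alone held 31.4%. At the other end stood Cyp4x1 with 2.32 per kb and Cyp1a1, the classic target of the aryl hydrocarbon receptor, with 2.81 per kb. Of the 43 genes, 25 had a mean of at least 100 normalized counts.

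**Figure D1:**
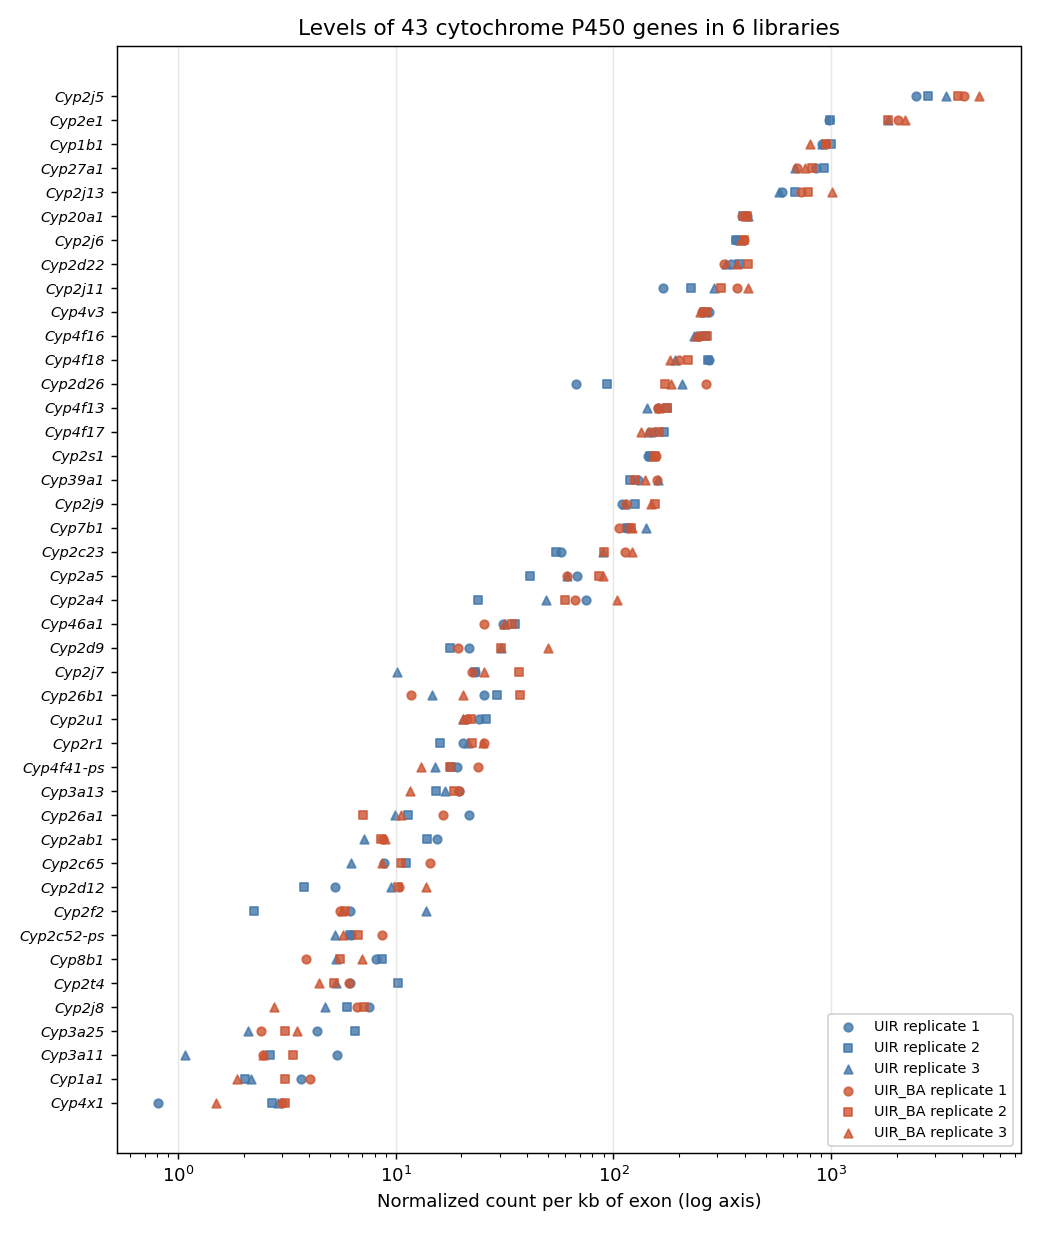
Level of each of the 43 genes in each library, as normalized counts per kb of merged exon on a log axis, ordered by the mean over 6 libraries. Blue points are UIR and orange points UIR_BA libraries. Cyp2j5 lies highest, from 2447 to 4804 per kb, and the blue and orange points of most genes lie close together.

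Between UIR_BA and UIR, 25 of the 43 genes had a higher mean log2 value and 18 a lower one. Their median log2 fold change was 0.06, where that of all 19176 genes was -0.01. No gene passed an adjusted p of 0.05 in limma's test over all genes (0 of 43 members and 0% of all genes), and the lowest adjusted p among the 43 was 0.249, for Cyp2j5. The quasi-likelihood test of edgeR also gave 0 members with an adjusted p below 0.05, as it did for the 17155 genes it kept (0). It gave 6 members higher at an unadjusted p below 0.05, where 947 of those 17155 genes were. At an unadjusted p below 0.05, 7 of the 43 were higher with BA, where 5.67% of all genes were, and 0 were lower, where 4.61% of all genes were. The 7 were Cyp2j5, Cyp2j13, Cyp2j11, Cyp2c23, Cyp2e1, Cyp2d26 and Cyp2d12. In 7 of 43 every UIR_BA library lay above every UIR library, where this held for 7.45% of all genes, and in 0 of 43 every one lay below, where this held for 6.96%. Those 7 were Cyp2j5, Cyp2j13, Cyp2j11, Cyp2c23, Cyp2d12, Cyp2s1 and Cyp2r1.

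**Figure D2:**
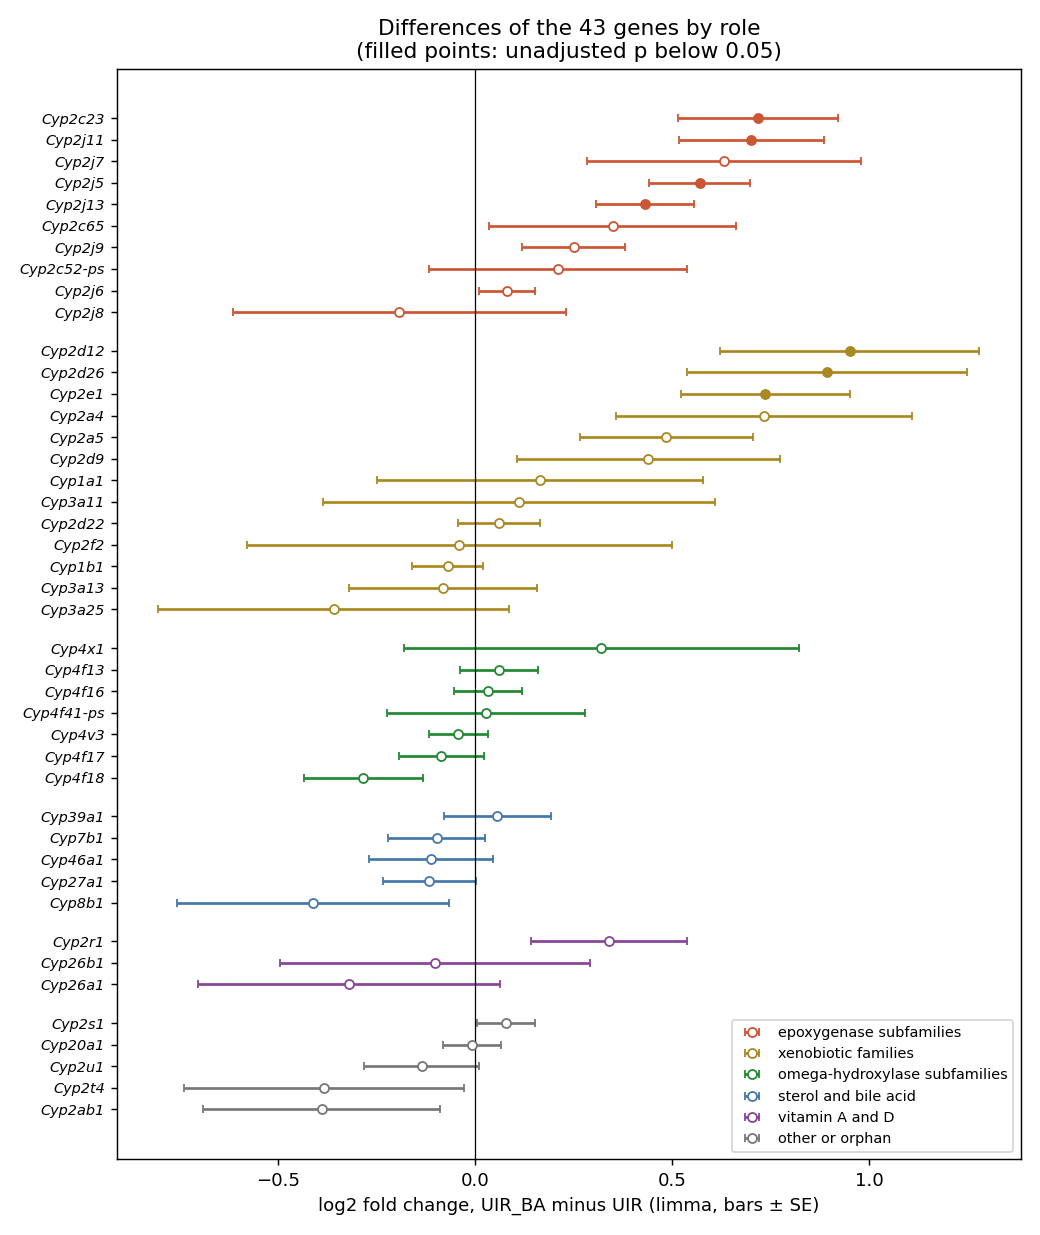
Difference between UIR_BA and UIR for each of the 43 genes, as the log2 fold change from limma with its SE, grouped by role. Filled points have an unadjusted p below 0.05. All 7 filled points lie to the right of 0, between 0.43 and 0.95, in the epoxygenase and xenobiotic groups.

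The epoxygenase subfamilies Cyp2c and Cyp2j made up 10 of the 43 genes, and 9 had a higher mean in UIR_BA (median of the log2 fold changes, 0.39). Of these, 4 had an unadjusted p below 0.05. The summed normalized counts were 10733, 12103 and 13153 in UIR and 15860, 15487 and 18989 in UIR_BA. Both sets of sums were carried mainly by Cyp2j5.

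The 7 Cyp2j genes lie together on the minus strand of chromosome 4 between 96027534 and 96664154 (GRCm38), over 637 kb. Cyp2j5 (96628773 to 96664154) read 5739, 6546 and 7898 normalized counts in UIR and 9575, 9000 and 11266 in UIR_BA. All 3 UIR_BA libraries were above all 3 UIR libraries. Its mean was 6728 ± 1091 (SD, n = 3) in UIR and 9947 ± 1178 (SD, n = 3) in UIR_BA. The log2 fold change was 0.57 (SE 0.13), with an adjusted p of 0.249 from limma, and the exact two-sided permutation test gave p = 0.1, the smallest that 3 against 3 allow. DESeq2 on whole reads gave Cyp2j5 a log2 fold change of 0.56 with an adjusted p of 0.00743.

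Cyp2j13, a second abundant gene of the cluster, read 2788, 3202 and 2699 in UIR and 3427, 3654 and 4719 in UIR_BA. The groups did not overlap, and UIR_BA replicate 3 stood highest. Its log2 fold change was 0.43 (SE 0.12), with an adjusted p of 0.333 from limma. Cyp2j11 read 324, 434 and 553 in UIR and 708, 596 and 795 in UIR_BA, again with no overlap. Its log2 fold change was 0.70 (SE 0.19), with an adjusted p of 0.296 from limma and of 0.0306 from DESeq2. Cyp2j5 and Cyp2j11 were the 2 members with an adjusted p below 0.05 in DESeq2, where 1.14% of the 14340 genes it tested were called higher with BA. DESeq2 gave an adjusted p to 29 of the 43 members.

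Of the 7 genes, 6 had a higher mean with BA, but not all of them by much. Cyp2j6, which lies between Cyp2j8 and Cyp2j9, read 1320, 1311 and 1390 in UIR and 1442, 1430 and 1383 in UIR_BA, with a log2 fold change of 0.08 (SE 0.07). Cyp2j9 read 366, 417 and 378 in UIR and 380, 516 and 497 in UIR_BA, with a log2 fold change of 0.25 (SE 0.13). Both had overlapping groups. The remaining pair had means below 100 normalized counts, with a log2 fold change of 0.63 (SE 0.35) for Cyp2j7 and of -0.19 (SE 0.42) for Cyp2j8, the 1 gene with a lower mean. Differences between genes of the cluster were not tested.

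The coding sequences of the 7 Cyp2j genes were 75.4% to 88.8% identical to each other, with Cyp2j11 and Cyp2j8 the closest pair. Cyp2j5 was at most 78.3% identical to another gene of the set, Cyp2j6. How reads that match more than 1 gene were counted is not given in the sources used here, so values of the closest copies are less certain.

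**Figure D3:**
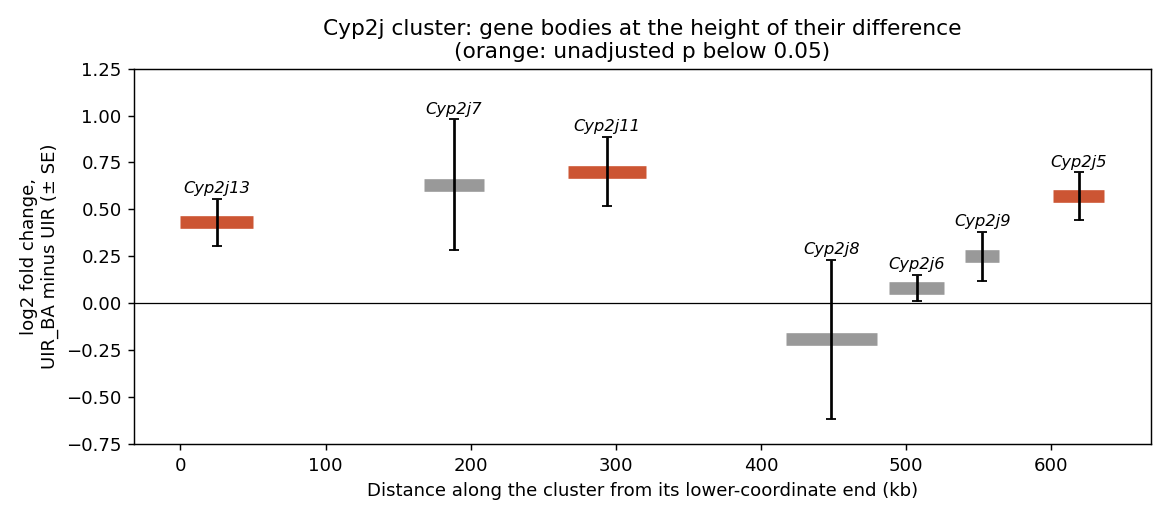
The 7 Cyp2j genes drawn as bars along their cluster, at the height of their log2 fold change (UIR_BA minus UIR) with its SE, against distance in kb. Orange bars have an unadjusted p below 0.05. Cyp2j13, Cyp2j11 and Cyp2j5 lie at 0.43, 0.70 and 0.57, with Cyp2j6 near 0 between them.

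Cyp2c23, an arachidonic acid epoxygenase of kidney, lies on chromosome 19 (44005022 to 44029208, minus strand). It read 124, 117 and 192 normalized counts in UIR and 244, 195 and 262 in UIR_BA. The groups did not overlap, but UIR replicate 3 and UIR_BA replicate 2 came within 3 counts of each other. The log2 fold change was 0.72 (SE 0.20), with an adjusted p of 0.323 from limma. The other measured Cyp2c members, Cyp2c65 and the pseudogene Cyp2c52-ps, were at 27.6 normalized counts or less in every library.

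The xenobiotic families held 13 members, of which 9 had a higher mean in UIR_BA and 3 had an unadjusted p below 0.05. The median of their log2 fold changes was 0.16. Cyp2e1 (chromosome 7, 140763739 to 140774987, plus strand) read 2103, 2133 and 3949 in UIR and 4388, 3941 and 4741 in UIR_BA. UIR replicate 3 lay inside the range of the UIR_BA group, while the other UIR libraries were about the same as each other and far below it. The log2 fold change was 0.74 (SE 0.21), with an adjusted p of 0.340 from limma, and the exact two-sided permutation test gave p = 0.2. Animals of both groups were given ethanol in the vehicle.

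The Cyp2d subfamily, which oxidises many drugs, had 4 members on chromosome 15. Cyp2d26 read 120, 168 and 370 in UIR and 476, 308 and 328 in UIR_BA. Here too UIR replicate 3 stood among the UIR_BA libraries, above 2 of them. Its log2 fold change was 0.89 (SE 0.36), with an adjusted p of 0.458 from limma. The log2 fold change was 0.54 without UIR replicate 1 and 1.35 without UIR replicate 3. Cyp2d12 read 20.4, 14.6 and 36.7 in UIR and 40.1, 39.8 and 53.2 in UIR_BA, without overlap, on 13 to 67 reads a library. Its log2 fold change was 0.95 (SE 0.33), with an adjusted p of 0.413 from limma.

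Cyp2d22, the most abundant Cyp2d gene, behaved otherwise in these values. It read 1357, 1480 and 1292 in UIR and 1262, 1615 and 1444 in UIR_BA, with a log2 fold change of 0.06 (SE 0.10). The direction of so small a difference turned when UIR_BA replicate 2 was left out. Cyp2d9 reached 134 normalized counts in its highest library and had a log2 fold change of 0.44 (SE 0.33). It is 93.3% identical in coding sequence to its nearest copy, and Cyp2d12 is 92.1% identical to its own.

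Cyp1b1 was the second highest of the 43 genes by normalized count. It read 5311, 5840 and 5314 in UIR and 5553, 5510 and 4660 in UIR_BA. The groups overlapped, with UIR_BA replicate 3 the lowest, and the log2 fold change was -0.07 (SE 0.09). Cyp2a5, a coumarin hydroxylase, and Cyp2a4, a testosterone hydroxylase, are 94.8% identical in coding sequence. Cyp2a5 had means of 117 ± 28.6 in UIR and 164 ± 32.4 in UIR_BA (SD, n = 3) and a log2 fold change of 0.49 (SE 0.22). Cyp2a4 had means of 85.8 ± 44.3 in UIR and 133 ± 41.2 in UIR_BA (SD, n = 3) and a log2 fold change of 0.73 (SE 0.38). The groups of both genes overlapped. Without UIR replicate 2, the lowest library of both, the log2 fold changes were 0.27 for Cyp2a5 and 0.29 for Cyp2a4, and without UIR replicate 1 that of Cyp2a4 was 1.11. The Cyp3a genes, the main drug oxidases of liver, reached 57.8 normalized counts in the highest library and Cyp1a1 reached 11.3.

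**Figure D4:**
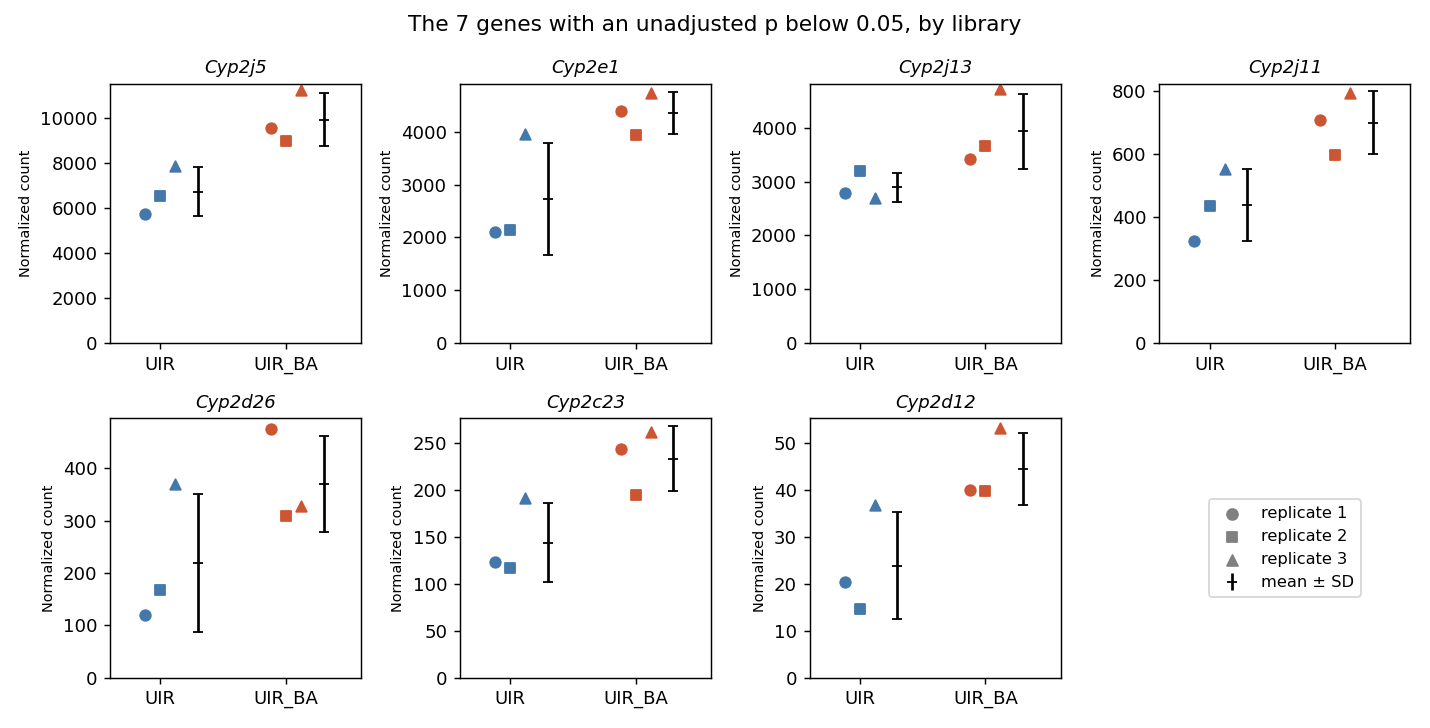
Normalized counts of the 7 genes with an unadjusted p below 0.05, by library, with the mean and SD of each group to the right of its points. UIR replicate 3 is the highest UIR library in 6 of the 7 genes, and in Cyp2e1 and Cyp2d26 it lies among the UIR_BA libraries.

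In 6 of these 7 genes UIR replicate 3 was the highest UIR library, Cyp2j13 being the exception. Without that library, 7 members had an adjusted p below 0.05 in limma. Cyp2e1, Cyp2j5, Cyp2d26, Cyp2c23, Cyp2j11 and Cyp2d12 were higher with BA, where 3.22% of all genes were called higher, and Cyp4f18 was lower, where 1.79% of all genes were. The log2 fold change of Cyp2e1 was then 1.04, with an adjusted p of 0.00193 from limma. That of Cyp2d26 was 1.35 and that of Cyp2d12 was 1.30. The UIR libraries left in that fit, replicates 1 and 2, differed less from each other in their read counts than any other pair of libraries. The 7 genes with an unadjusted p below 0.05 in all 6 libraries stayed higher with BA whichever library was left out. They were chosen by that p in these same libraries. In 5 of them the groups did not overlap, so leaving out a library could not turn their direction.

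The 7 members of the Cyp4 family, which belong to families known for hydroxylating the far end of fatty acids, had 4 higher and 3 lower means with BA. None had an unadjusted p below 0.05. Cyp4v3 read 1045, 997 and 994 in UIR and 975, 1024 and 949 in UIR_BA (log2 fold change -0.04, SE 0.08). Cyp4f16 read 752, 806 and 717 in UIR and 769, 827 and 733 in UIR_BA (log2 fold change 0.03, SE 0.09). Cyp4f13 had a log2 fold change of 0.06 (SE 0.10) and Cyp4f17 of -0.09 (SE 0.11). The Cyp4f genes on chromosome 17 therefore all lay between -0.09 and 0.06 on the log2 scale.

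Cyp4f18, on chromosome 8, is known from leukocytes, where it inactivates leukotriene B. It read 510, 506 and 355 in UIR and 371, 407 and 336 in UIR_BA, with a log2 fold change of -0.28 (SE 0.15) and an adjusted p of 0.545 from limma. UIR replicate 3 again lay among the UIR_BA libraries, and without it the log2 fold change was -0.46 with an adjusted p of 0.0451 from limma. Of 7 macrophage markers, 0 were higher and 7 lower with BA (median log2 fold change -0.26), 1 of them with an unadjusted p below 0.05. Their mean log2 values were 12.96, 12.86 and 12.55 in UIR and 12.53, 12.62 and 12.46 in UIR_BA, and their summed normalized counts ran from 83416 to 119127 in UIR and from 79657 to 92280 in UIR_BA. None of these markers was at 0. Their part in the values of Cyp4f18 was not tested.

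The 5 sterol and bile acid genes had 1 higher and 4 lower means with BA, with none at an unadjusted p below 0.05. Cyp27a1 read 1850, 2026 and 1488 in UIR and 1507, 1766 and 1643 in UIR_BA, with a log2 fold change of -0.12 (SE 0.12). Cyp39a1 and Cyp7b1, which hydroxylate oxysterols, had log2 fold changes of 0.06 (SE 0.14) and -0.10 (SE 0.12), on means of 416 ± 66.4 and 269 ± 31.7 in UIR and of 431 ± 50.3 and 251 ± 18.6 in UIR_BA (SD, n = 3). Cyp46a1, the cholesterol hydroxylase known from brain, had a log2 fold change of -0.11 (SE 0.16). Cyp8b1, which liver needs for cholic acid, was between 7.52 and 16.9 normalized counts, with a log2 fold change of -0.41 (SE 0.35).

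Of the vitamin A and D genes, 3 were among the 43, since Cyp24a1 and Cyp27b1 were set apart. Cyp26a1 and Cyp26b1, which break down retinoic acid, had log2 fold changes of -0.32 (SE 0.38) and -0.10 (SE 0.39). The values of Cyp26b1 ran from 78.9 to 156 in UIR and from 62.6 to 199 in UIR_BA, so the UIR_BA range took in the whole UIR range. Cyp2r1, a vitamin D hydroxylase, read 43.1, 33.7 and 45.5 in UIR and 53.9, 47.4 and 53.2 in UIR_BA. Its groups did not overlap, but the gap was under 2 counts, and the log2 fold change of 0.34 (SE 0.20) had an adjusted p of 0.568 from limma. Of the P450 genes of steroid hormone synthesis, 0 were among the genes with values.

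Among the other genes, Cyp20a1, an orphan enzyme, was the steadiest of the abundant members. It read 936, 903 and 947 in UIR and 894, 937 and 941 in UIR_BA, with a log2 fold change of -0.01 (SE 0.07). Cyp2s1 read 714, 724 and 737 in UIR and 773, 765 and 759 in UIR_BA. Its groups did not overlap, yet the log2 fold change was 0.08 (SE 0.07). Cyp2u1, a fatty acid hydroxylase, had a log2 fold change of -0.14 (SE 0.15). A further 14 members had means between 7.62 and 75.2 normalized counts, with log2 fold changes between -0.39 and 0.63 and none at an unadjusted p below 0.05.

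Markers of the proximal tubule were higher in the same libraries. Of 20 markers, 19 were higher with BA, 17 with an unadjusted p below 0.05, and their median log2 fold change was 0.71. Their mean log2 value was 9.40, 9.37 and 10.01 in UIR and 10.16, 10.05 and 10.58 in UIR_BA, and their summed counts ran from 36816 to 56017 and from 62068 to 81092. UIR replicate 3 lay just below the lowest UIR_BA library in this score, whereas for Cyp2e1 and Cyp2d26 it lay inside the UIR_BA range. In whole cortex, fewer tubule cells and less RNA in each tubule cell cannot be told apart. Of 8 hepatocyte markers 4 were higher (median log2 fold change 0.04), and all 7 fibroblast markers were lower (median -0.32).

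Each P450 gene was then set against the marker mean of its own library, by subtracting it from the log2 value. Relative to the markers, the groups overlapped for 7 of 7 of the genes above. Cyp2j5 read 3.08, 3.30 and 2.93 above the marker mean in UIR and 3.06, 3.09 and 2.88 above it in UIR_BA, a difference of -0.10. The same difference was 0.07 for Cyp2e1, 0.03 for Cyp2j11, 0.05 for Cyp2c23 and -0.24 for Cyp2j13. It was 0.23 for Cyp2d26 and 0.28 for Cyp2d12. Of the 43 genes, 37 were lower relative to the markers (median difference -0.61), and in 3 of them, Cyp20a1, Cyp39a1 and Cyp7b1, the groups were then separate. The marker mean was itself higher in UIR_BA, so by this subtraction a gene that hardly differed comes out lower. Cyp20a1 had a log2 fold change of -0.01 before it. The shares of all genes that come out lower or separate in this way were not computed. A gene about as much higher as the markers comes out with little difference. The 7 genes were chosen by p and were all higher, so their overlap was partly set by the subtraction. A common source of the 7 genes and the markers was not tested.

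**Figure D5:**
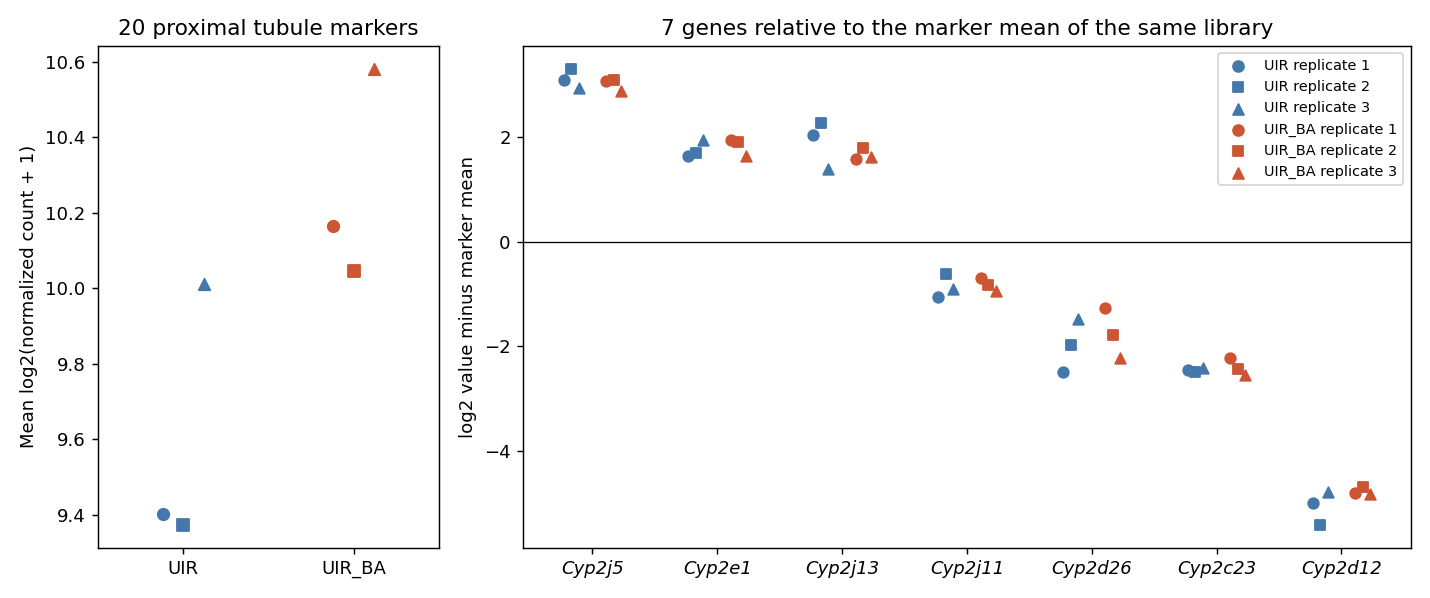
Left, mean log2 value of the 20 proximal tubule markers in each library. Right, log2 value of each of the 7 genes minus that marker mean in the same library. The marker mean is 9.37 to 10.01 in UIR and 10.05 to 10.58 in UIR_BA, and after subtraction blue and orange points of each gene overlap.

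Of the transcription factors known to act on P450 genes, 15 of 17 were measured. At an unadjusted p below 0.05, 6 were higher with BA, where 5.67% of all genes were, and 0 were lower, where 4.61% were. These factors were not set against the proximal tubule markers, whose median log2 fold change was 0.71. Hnf4a, a factor of proximal tubule and liver, read 3052, 3653 and 3797 in UIR and 5096, 4819 and 5429 in UIR_BA (log2 fold change 0.55, SE 0.10, adjusted p = 0.225 from limma and 0.00094 from DESeq2). Its groups were separate. The log2 fold change was 0.53 for Vdr, 0.32 for Nr1h4 and 0.81 for Ppara, receptors for vitamin D, bile acids and fatty acids. Ahr, the receptor behind Cyp1a1 induction, had a log2 fold change of -0.15 without passing the same p.

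Por, the P450 oxidoreductase, read 1195, 1291 and 1070 in UIR and 1287, 1538 and 1543 in UIR_BA, with a log2 fold change of 0.30 (SE 0.10) and an adjusted p of 0.418 from limma. It was the 1 gene of 9 measured electron transfer partners with an unadjusted p below 0.05. Of 8 heme synthesis genes, Cpox alone reached it, with a log2 fold change of 0.31 (SE 0.12), while Alas1, the rate-limiting enzyme, had 0.09. Ephx2, the soluble hydrolase that breaks down the epoxides of the Cyp2c and Cyp2j enzymes, read 2342, 2586 and 2481 in UIR and 2597, 2980 and 3809 in UIR_BA (log2 fold change 0.32, SE 0.13, adjusted p = 0.455 from limma). Ephx1, the microsomal form, had a log2 fold change of -0.11. Of the P450 genes outside the naming rule, Tbxas1, Ptgis and Cyp51, 0 of 3 had an unadjusted p below 0.05.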

How the data were processed

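Libraries of renal cortex RNA, 3 UIR and 3 UIR_BA, were analysed. The methods state read filtering, alignment by HISAT2, counting by FeatureCounts and testing by DESeq2. The build is not given in the sources used here. For each gene and library the authors deposited a signal, the read count over the size factor of that library, and 100% of the values were whole reads after division by the step of the library (tolerance 0.001). The methods name FPKM as the unit. Columns of the authors' own fold changes and p-values and the deposited enrichment tables were not used, and no library column was left unused (0 columns). Totals were 16510720 to 38124164 reads, with 3 replicates a group, and counting error adds to the spread of genes with few reads.

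limma 3.58.1 (R 4.3.3) tested log2 of the value plus 1 over all 19176 rows, with a variance trend, no covariate and Benjamini-Hochberg adjustment. A call was an adjusted p below 0.05. Single genes were also given an exact two-sided permutation test. DESeq2 1.42.0 and edgeR 4.0.16 ran on the whole reads as alternatives, edgeR with its quasi-likelihood test. Further alternatives were quantile and upper quartile scaling, a pseudocount of 0.1, a minimum of 1 in every library, a replicate block, each library left out, and other membership. The fits were tested on simulated data. Named members had a mean of at least 100, an unadjusted p below 0.05, or a sterol, bile acid or vitamin role. Of the pathway lists, genes with an unadjusted p below 0.05 were named, and a few others were added after their values were seen. Results for some of these genes are not reported here. The members and lists were chosen with earlier results of these data known. Gene positions were matched by symbol for 43 of 43 members in GENCODE M21. Identity was computed with Biopython 1.88.

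Of the further marker lists fixed for the tissue, 5 of 9 injured tubule, 3 of 4 thick limb, 6 of 7 collecting duct, 1 of 6 endothelium, 0 of 7 urothelium and 1 of 4 measured adrenal cortex markers were higher with BA. Of 5 adrenal medulla markers 1 was measured and was lower, and of 4 adipocyte markers 0 were measured.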

Additional observations from a re-analysis of the deposited data

How the results depend on the processing

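Of the counts above, members higher at an unadjusted p below 0.05 ran from 5 to 9 with 1 library left out and were 7 with every other scaling, pseudocount or filter tried in limma, 7 with DESeq2 and 6 with edgeR. Members lower at an unadjusted p ran from 0 to 3, highest without UIR replicate 3. Members with an adjusted p below 0.05 ran from 0 to 7, also highest without UIR replicate 3. The counts over all genes moved with the setting too. Without UIR replicate 3, 8 of 43 members were higher and 3 lower at an unadjusted p, where 2629 and 2209 of 19176 genes were. The 5 higher members came without UIR replicate 2 and the 9 without UIR_BA replicate 1, where 711 and 748 of 19176 genes were higher. DESeq2 gave 2 members with an adjusted p below 0.05, where it called 163 of 14340 genes higher. It gave 857 genes higher at an unadjusted p below 0.05. Members whose groups did not overlap were 7 or 8 with all 6 libraries. They ran from 9 to 17 with 1 library left out, where fewer libraries make separation easier. There were 17 without UIR replicate 3 and 12 without UIR_BA replicate 1. The share of all genes separate with 1 library left out was not computed. The counts from 9 to 17 therefore cannot be read as a result about the members. The median log2 fold change of the members ran from 0.015 to 0.093 with 1 library left out. It was 0.016 without UIR replicate 3 and 0.015 without UIR_BA replicate 2. The 7 genes of the Cyp4 family did not decide it, since the median without them was 0.08.

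With the replicate number as a replicate block, 8 of 43 members were higher and 1 was lower (Cyp4f18) at an unadjusted p below 0.05. In the same fit 1104 of 19176 genes were higher and 1002 lower at that p. Past the adjusted threshold were 0 members, and 6 of all genes. Libraries with the same number correlated at -0.24, 0.30 and 0.15 in their deviations from the group mean, so the numbers were not taken as pairs.

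Of 38 genes that the naming rule covers, 29 kept their direction in all alternatives and 9 turned in some. None of the 9 had an unadjusted p below 0.05. With 1 library left out the log2 fold change ran from -0.11 to 0.013 for Cyp1b1, from -0.026 to 0.15 for Cyp2d22, from -0.027 to 0.016 for Cyp20a1, from -0.014 to 0.078 for Cyp4f16, from -0.017 to 0.13 for Cyp4f13, from -0.036 to 0.18 for Cyp39a1, from -0.52 to 0.31 for Cyp26b1, from -0.20 to 0.0059 for Cyp46a1 and from -0.62 to 0.012 for Cyp26a1. Cyp26b1 also turned with DESeq2 (0.0097) and with edgeR (0.032 with its filter and 0.028 without). The cause was not tested. The 18 members with a mean below 100 normalized counts rest on few reads.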

Other observations

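Among 4 kidney genes known to respond to androgens, Kap and Slco1a1 were highest in UIR_BA replicate 3, the library in which 6 of the 7 genes above were also highest of their group. Kap read 29077, 32021 and 30671 in UIR and 27223, 41925 and 76195 in UIR_BA. Slco1a1 read 118, 110.2 and 159.9 in UIR and 99.0, 160.5 and 401 in UIR_BA. Odc1 was highest in UIR replicate 3 (4702) and Gusb in UIR replicate 1 (2371), with log2 fold changes of 0.17 and -0.10. The unadjusted p of limma was above 0.05 for all 4. The mean log2 value of the proximal tubule markers was also highest in UIR_BA replicate 3 (10.58). A link between the androgen-responsive genes and the P450 genes was not tested.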
